A study of Homo sapiens with 9 samples.

Results

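The genes described here are SREBF2 and 7 genes of cholesterol synthesis and its control, taken by symbol from the deposited table of expression values. They are SREBF2, the sterol sensor gene INSIG1, and the enzyme genes HMGCS1, IDI1, FDFT1, SQLE, LSS and DHCR7. All 8 were among the 16772 genes of the table, and all 8 were among the 11525 genes tested, those that reached an FPKM of 1 in 3 or more libraries. FPKM scales fragments to transcript length and library size, so levels can be set side by side between genes and libraries, but a change in the total RNA of a cell cannot be told apart from no change.

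RNA was sequenced from DU145, a human prostate cancer cell line labelled as wild type, after 6 days in 1 of 3 treatments. H93, which the series title describes as aimed at the epigenetic regulator UHRF1, was given at 20 µM. SAHA, also known as vorinostat, inhibits histone deacetylases and was given at 500 nM, each dissolved in DMSO. The reference cells received DMSO alone, and all cells were kept in serum-containing medium that was renewed daily. Each group had 3 libraries, all from this 1 line, and the labels do not say whether the replicates were separate cultures, so the spread behind the p-values may be technical.

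The libraries were alike in size. Their FPKM summed to between 348656 and 355741, the read steps in low values put their relative depths between 0.875 and 1.0 of the deepest, and the absolute depth was unknown. All 5 epithelial marker genes were present. KRT8 (between 664 and 737 FPKM) and KRT18 (between 653 and 714) were highest. KRT19 (between 168 and 424), EPCAM (between 29.6 and 67.7) and CDH1 (between 4.04 and 13.4) were lower and varied more. The 3 luminal prostate markers in the table were low, their summed FPKM lying between 3.57 and 3.78 with H93, between 2.85 and 3.20 with SAHA and between 3.39 and 3.64 with DMSO. The 5 fibroblast markers summed to between 3.92 and 4.66 FPKM with H93, between 3.90 and 6.61 FPKM with SAHA and between 2.55 and 3.52 FPKM with DMSO. The 3 leukocyte markers in the table, of which CD14 was highest and PTPRC stayed at or below 0.0179 FPKM, summed to between 0.874 and 1.09 FPKM with H93, between 0.541 and 1.13 FPKM with SAHA and between 0.577 and 0.606 FPKM with DMSO. The 4 endothelial markers in the table summed to between 0.187 and 0.287 FPKM with H93, between 0.143 and 0.302 FPKM with SAHA and between 0.117 and 0.162 FPKM with DMSO. Summed over the 5 epithelial markers, FPKM lay between 1827 and 1864 with H93, between 1751 and 1827 with SAHA and between 1583 and 1623 with DMSO, and the part of these marker differences in the results below was not tested.

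SREBF2 encodes a transcription factor that is held in the endoplasmic reticulum membrane together with its escort SCAP. When membrane sterol is plentiful, INSIG proteins retain that complex. When sterol is scarce, the complex moves to the Golgi, where the proteases encoded by MBTPS1 and MBTPS2 release the active part, which binds sterol regulatory elements and raises transcription of the cholesterol synthesis enzymes, of INSIG1 and of SREBF2 itself. HMGCS1 makes HMG-CoA, and IDI1 interconverts the isoprene units that are built from mevalonate. FDFT1 joins farnesyl units into squalene, SQLE (a rate-limiting, oxygen-dependent step) and LSS turn squalene into lanosterol, and DHCR7 reduces the last precursor, 7-dehydrocholesterol, to cholesterol.

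Promoter windows from RefSeq (build GRCh38.p14, 250 bases before to 50 after a transcript start) were given for 6 of the 8 genes, in 10 windows, and FDFT1 and SQLE had none. The bases before the start are printed 5′ to 3′ on the gene's strand for the regulator, the sensor, both enzyme genes with the largest differences from DMSO, and HMGCS1, an enzyme gene without a call against DMSO, with capitals for the sterol regulatory element core TCACNCC, the NF-Y box CCAAT and the E-box CACGTG on either strand. For DHCR7 and HMGCS1, which had more than 1 window, the first of the table is shown.
SREBF2, chr22:41832855-41833104, plus strand: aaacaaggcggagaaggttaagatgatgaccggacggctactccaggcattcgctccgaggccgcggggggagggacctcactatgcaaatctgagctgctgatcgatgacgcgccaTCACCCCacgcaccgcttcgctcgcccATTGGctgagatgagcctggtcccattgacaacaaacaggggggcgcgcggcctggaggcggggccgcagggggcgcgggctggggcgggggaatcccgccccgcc
INSIG1, chr7:155297628-155297877, plus strand: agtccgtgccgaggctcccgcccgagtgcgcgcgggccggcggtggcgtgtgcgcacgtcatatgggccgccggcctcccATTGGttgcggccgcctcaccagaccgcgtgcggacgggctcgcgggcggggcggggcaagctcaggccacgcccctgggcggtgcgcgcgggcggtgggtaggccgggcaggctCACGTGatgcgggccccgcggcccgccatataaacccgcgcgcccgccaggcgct
LSS, chr21:46228775-46229024, minus strand: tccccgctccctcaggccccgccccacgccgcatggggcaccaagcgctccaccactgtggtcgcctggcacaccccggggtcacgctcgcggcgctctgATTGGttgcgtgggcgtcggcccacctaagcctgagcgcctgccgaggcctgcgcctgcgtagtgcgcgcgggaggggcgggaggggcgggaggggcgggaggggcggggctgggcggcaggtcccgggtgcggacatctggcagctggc
DHCR7, chr11:71448394-71448643, minus strand: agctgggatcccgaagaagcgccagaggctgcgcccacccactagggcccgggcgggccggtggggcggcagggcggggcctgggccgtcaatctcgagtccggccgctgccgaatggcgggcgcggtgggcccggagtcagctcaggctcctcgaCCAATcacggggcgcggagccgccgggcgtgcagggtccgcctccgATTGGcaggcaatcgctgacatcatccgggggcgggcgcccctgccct
HMGCS1, chr5:43313413-43313662, minus strand: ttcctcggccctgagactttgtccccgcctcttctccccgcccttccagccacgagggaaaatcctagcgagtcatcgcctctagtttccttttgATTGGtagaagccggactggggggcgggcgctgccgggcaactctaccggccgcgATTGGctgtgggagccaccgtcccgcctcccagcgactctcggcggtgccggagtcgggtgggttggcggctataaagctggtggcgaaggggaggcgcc

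All 4 motifs, the Sp1 box GGGCGG included, were searched on both strands of the whole windows, and no match of one overlapped a match of another. SREBF2 held the element core at position -133 from the start and an NF-Y box at -106. INSIG1 held an NF-Y box at -170 and an E-box at -55, and no element core. The element core was in windows of 3 of the 6 genes (SREBF2, HMGCS1 and IDI1), against 18.2% of the 27305 genes in the promoter table. For HMGCS1 it lay after the start of the window shown, at position 21, and the same site was at -211 in its second window. For IDI1 it was at -9 in the first window only. That window, with bases before the start from 1056705 to 1056954, lies outside the GENCODE span of the gene, which ends at 1049170. An NF-Y box was in a window of all 6 genes, against 39.7% of genes in the table, and an Sp1 box likewise in all 6, against 48.3%. The second DHCR7 window held no match to any of the 4 motifs. An E-box was in windows of INSIG1 and LSS, against 8.77% of genes. For LSS it lay after the start, at position 41, beyond the bases printed. These matches describe letters in the windows, and binding was not measured.

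The first comparisons asked what H93 and SAHA changed relative to their solvent. In both, the regulator SREBF2, the sensor INSIG1 and the enzymes IDI1, LSS and DHCR7 fell, and HMGCS1 and SQLE did not pass. On the FPKM scale INSIG1 fell by 53.2% with H93 and fell by 44.5% with SAHA. LSS fell by 27.4% with H93 and fell by 26.5% with SAHA, and DHCR7 fell by 23.1% with H93 and fell by 23.5% with SAHA. SREBF2 fell by 17.0% with H93 and fell by 8.09% with SAHA. Of the 8 genes, 6 fell and 0 rose with H93, where 69.8% of all tested genes were called 35.0% as lower and 34.9% as higher. With SAHA 5 fell and 0 rose, where 58.8% of all tested genes were called 31.4% as lower and 27.4% as higher. The libraries did not overlap for 6 of the 8 genes with H93, all lower, where 73.2% of tested genes did not overlap and 36.8% were lower without overlap. With SAHA they did not overlap for 7, all lower, where the shares were 64.1% and 34.4%. The median log2 difference of the 8 genes was -0.24 with H93 and -0.18 with SAHA, beside 0.0016 and -0.01 over all genes tested. Calls here and below are adjusted p under 0.05 in limma on log2(FPKM + 1) with Benjamini-Hochberg adjustment over 11525 genes, and the DMSO libraries are shared by both comparisons.

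**Figure D1:**
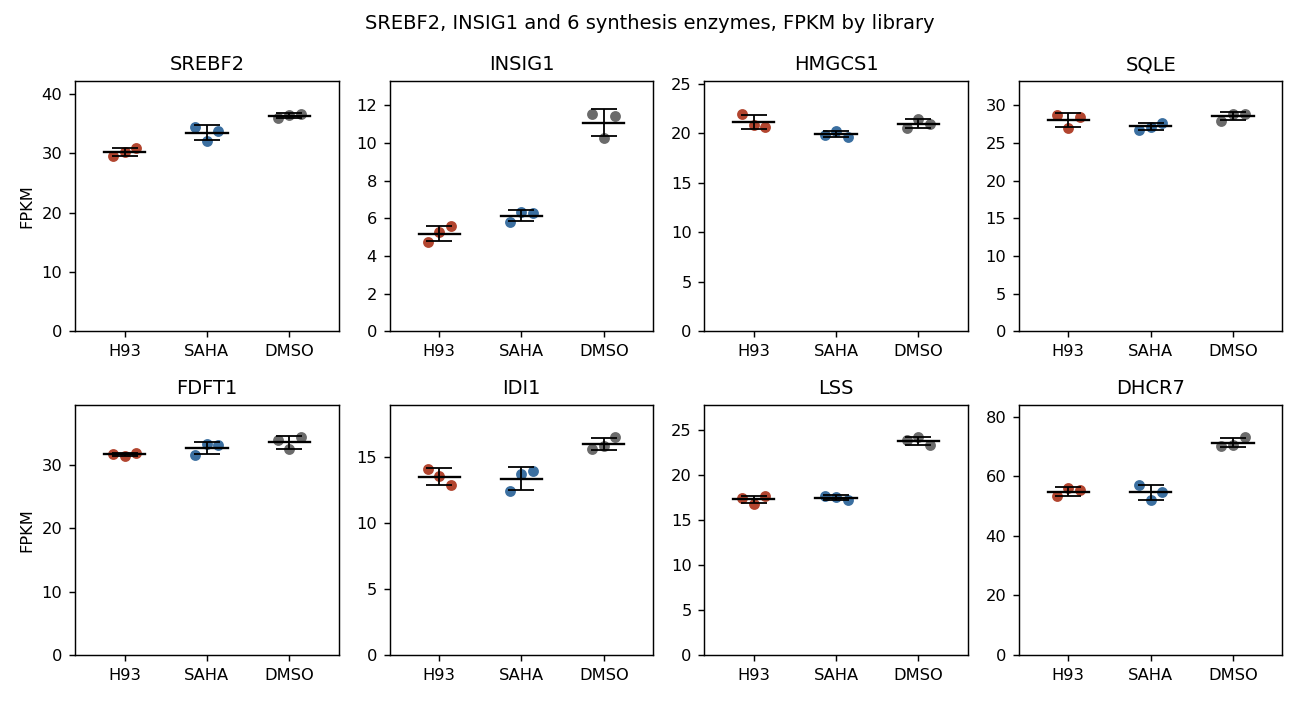
FPKM (vertical axes, from 0) of the 8 genes in each library, with H93, SAHA and DMSO from left to right; points are libraries, bars the mean and SD of 3. INSIG1, LSS and DHCR7 lie lower in all 6 treated libraries than in any DMSO library, while HMGCS1 and SQLE stay within a narrow band.

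SREBF2 lies on chromosome 22 from 41833079 to 41907308 (plus strand, GENCODE release 29 on GRCh38, protein-coding, as are the other 7). It stood at 29.5, 30.3 and 30.9 FPKM with H93, at 34.5, 32.1 and 33.8 FPKM with SAHA, and at 36.0, 36.5 and 36.7 FPKM with DMSO. The 3 groups did not overlap, with H93 lowest and SAHA between. The log2 difference from DMSO was -0.26 (SE 0.0312) with H93, at adjusted p = 9.73e-06 in limma, and -0.12 (SE 0.0312) with SAHA, at adjusted p = 0.00578 in limma. Shifts of this size were common, since 39.35% of the genes tested had a larger absolute log2 difference with H93 and 57.67% with SAHA. Set directly against SAHA, H93 gave -0.14 (95% interval -0.21 to -0.07, not adjusted for multiple testing), at adjusted p = 0.00526 in limma.

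INSIG1, on chromosome 7 from 155297776 to 155310235, is both a retention factor for SCAP and a known SREBP target. It stood at 4.74, 5.26 and 5.56 FPKM with H93, at 5.79, 6.35 and 6.28 FPKM with SAHA, and at 11.6, 10.3 and 11.4 FPKM with DMSO. Every treated library lay below every DMSO library, and only 2.61% of the genes tested had a larger absolute log2 difference with H93 and 2.69% with SAHA. The log2 difference was -0.97 (SE 0.0592, adjusted p = 2.22e-08, limma) with H93 and -0.76 (SE 0.0592, adjusted p = 4.04e-07, limma) with SAHA. H93 lay below SAHA by a log2 difference of -0.21 (SE 0.0592), at adjusted p = 0.0192 in limma. That last call was lost without H93 replicate 1 (adjusted p = 0.0767 in limma), SAHA replicate 2 (0.0612) or SAHA replicate 3 (0.0611), and with no filter on low values (0.0504).

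HMGCS1, on chromosome 5 from 43289395 to 43313512, stood at 22.0, 20.8 and 20.7 FPKM with H93, at 19.9, 20.3 and 19.7 FPKM with SAHA, and at 20.5, 21.4 and 20.9 FPKM with DMSO. H93 overlapped DMSO, and SAHA lay just below it. With H93 the log2 difference was 0.01 (95% interval -0.06 to 0.08), at adjusted p = 0.754 in limma. With SAHA it was -0.07 (95% interval -0.14 to 0.0009), at adjusted p = 0.0825 in limma.

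IDI1, on chromosome 10 from 1039152 to 1049170, stood at 14.1, 13.6 and 12.9 FPKM with H93, at 12.4, 13.8 and 13.98 FPKM with SAHA, and at 15.6, 15.9 and 16.5 FPKM with DMSO. All 6 treated libraries were below the DMSO libraries and the treated groups overlapped each other. The log2 difference was -0.23 (SE 0.0469, adjusted p = 0.000886, limma) with H93 and -0.24 (SE 0.0469, adjusted p = 0.000759, limma) with SAHA.

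FDFT1 and SQLE, the enzymes that make and then oxidise squalene, both lie on chromosome 8, from 11795573 to 11839309 and from 124998497 to 125022283. FDFT1 stood at 31.7, 31.5 and 31.9 FPKM with H93, at 31.6, 33.3 and 33.2 FPKM with SAHA, and at 33.9, 32.5 and 34.4 FPKM with DMSO. H93 lay just below DMSO, and SAHA overlapped it. FDFT1 fell with H93 by a log2 difference of -0.08 (adjusted p = 0.0326, limma), a call lost with any 1 H93 library left out (adjusted p between 0.0516 and 0.0831 in limma), without DMSO replicate 1 (0.0892) or DMSO replicate 3 (0.124), and with quantile normalization (0.0524). With SAHA its log2 difference was -0.04 (95% interval -0.10 to 0.03), at adjusted p = 0.307 in limma.

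SQLE stood at 28.7, 27.0 and 28.4 FPKM with H93, at 26.7, 27.2 and 27.7 FPKM with SAHA, and at 27.9, 28.9 and 28.8 FPKM with DMSO. H93 overlapped DMSO, and the highest SAHA library lay just below the lowest DMSO library. The log2 difference with H93 was -0.02 (95% interval -0.09 to 0.04), at adjusted p = 0.488 in limma. With SAHA it was -0.07 (95% interval -0.13 to -0.0007), at adjusted p = 0.0764 in limma. These intervals are not adjusted for multiple testing, whereas the p-values are.

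LSS, lanosterol synthase, on chromosome 21 from 46188141 to 46228824, stood at 17.4, 16.8 and 17.6 FPKM with H93, at 17.7, 17.6 and 17.2 FPKM with SAHA, and at 23.9, 24.2 and 23.3 FPKM with DMSO. The treated groups overlapped each other and lay well below DMSO. The log2 difference was -0.44 (SE 0.0305, adjusted p = 6.78e-08, limma) with H93 and -0.42 (SE 0.0305, adjusted p = 1.96e-07, limma) with SAHA. LSS acts next after SQLE in the pathway, and their FPKM ratio, LSS over SQLE, was between 0.606 and 0.623 with H93, between 0.62 and 0.663 with SAHA and between 0.809 and 0.855 with DMSO.

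DHCR7, on chromosome 11 from 71428193 to 71452868, had the highest FPKM of the 8 genes in every group. It stood at 53.2, 56.0 and 55.4 FPKM with H93, at 57.2, 51.9 and 54.7 FPKM with SAHA, and at 70.3, 70.6 and 73.1 FPKM with DMSO. Treated libraries again lay below all DMSO libraries and overlapped each other. The log2 difference was -0.37 (SE 0.0346, adjusted p = 9.58e-07, limma) with H93 and -0.38 (SE 0.0346, adjusted p = 1.5e-06, limma) with SAHA.

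**Figure D2:**
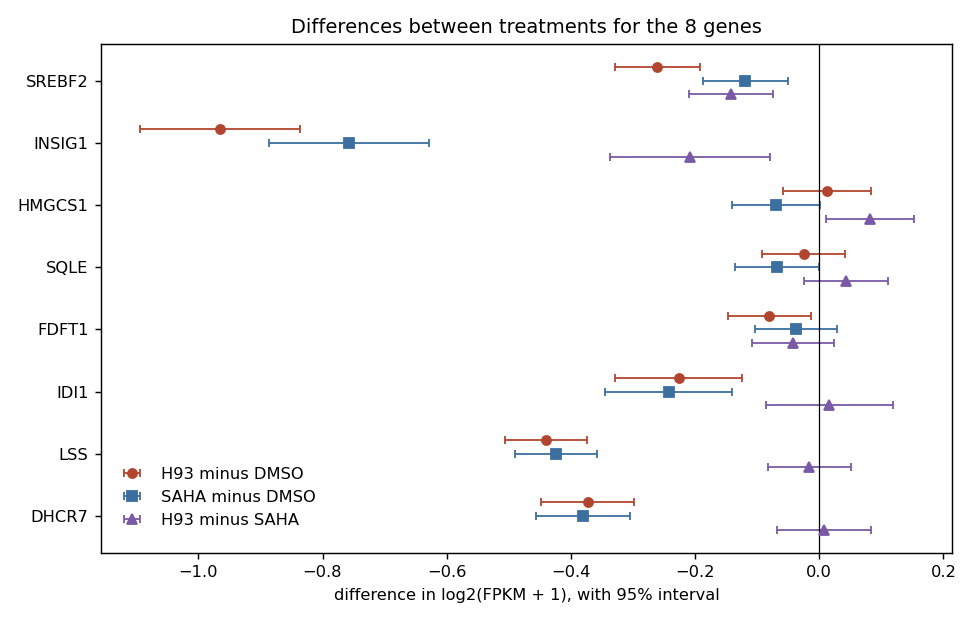
Differences in log2(FPKM + 1) with unadjusted 95% intervals (horizontal axis) for the 8 genes, for H93 minus DMSO (circles), SAHA minus DMSO (squares) and H93 minus SAHA (triangles). For LSS, DHCR7 and IDI1 the H93 minus SAHA intervals include 0, and for SREBF2 and INSIG1 they lie below it.

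The design also set H93 against SAHA. Of the 8 genes 2 were lower with H93 and 0 higher, where 31.5% of tested genes were called, 13.9% as lower and 17.6% as higher, and those 2 were SREBF2 and INSIG1. The libraries did not overlap for 3 of the 8 genes, 2 lower and HMGCS1 higher with H93, where 44.4% of tested genes did not overlap and 18.8% were lower without overlap. For the 6 enzymes no difference passed. The unadjusted 95% intervals of the log2 difference were -0.08 to 0.05 for LSS, -0.07 to 0.08 for DHCR7, -0.09 to 0.12 for IDI1, -0.11 to 0.02 for FDFT1 and -0.02 to 0.11 for SQLE. For HMGCS1 it was 0.01 to 0.15, at adjusted p = 0.0734 in limma, with the H93 libraries all above the SAHA libraries. The doses and classes of the compounds differ, so these intervals compare these treatments and not potency.

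Ranked by level, the 8 genes kept nearly the same order under each treatment. With DMSO the order was DHCR7, SREBF2, FDFT1, SQLE, LSS, HMGCS1, IDI1 and INSIG1, and no neighbours in it overlapped between libraries. With H93 FDFT1 stood above SREBF2 and HMGCS1 above LSS, again without overlap. With SAHA HMGCS1 also stood above LSS, and SREBF2 and FDFT1 overlapped, at 33.5 ± 1.26 and 32.7 ± 0.9753 FPKM (SD, n = 3). Summed over the 8 genes, FPKM lay between 201.3 and 203.3 with H93, between 202.5 and 206.5 with SAHA, and between 239.8 and 245.2 with DMSO.

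The other sterol sensing and activation genes went both ways. SREBF1, the paralogue that mainly drives fatty acid synthesis, fell to 4.63 ± 0.262 FPKM with H93 and 5.50 ± 0.321 FPKM with SAHA, against 13.7 ± 0.745 FPKM with DMSO (SD, n = 3 each). MBTPS1, the first of the activating proteases, fell to 42.4 ± 0.787 FPKM with H93 and 45.9 ± 0.703 FPKM with SAHA, against 48.8 ± 0.816 FPKM with DMSO. INSIG2, the other retention factor, rose to 15.1 ± 0.561 FPKM with H93 and 13.6 ± 0.616 FPKM with SAHA, against 10.4 ± 0.867 FPKM with DMSO. The escort SCAP (adjusted p = 0.297 with H93 and 0.241 with SAHA, limma) and the second protease MBTPS2 (0.23 and 0.226) did not pass, although MBTPS2 did without DMSO replicate 1 (0.0177 and 0.0195). Of these 7 genes, SREBF2 and INSIG1 included, 4 fell and 1 rose in each comparison with DMSO, where 35.0% of all tested genes were lower and 34.9% higher with H93, and 31.4% and 27.4% with SAHA. Against SAHA, 4 were lower and 0 higher with H93, where 13.9% and 17.6% of all tested genes were. INSIG2 was higher in all H93 libraries than in any SAHA library but did not pass (log2 difference 0.14, adjusted p = 0.0601, limma). It passed in 3 of 17 alternative settings (adjusted p as low as 0.0252 in limma).

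The ratio of the 2 retention factors shifted. The FPKM ratio of INSIG2 to INSIG1 was 3.23, 2.95 and 2.59 with H93, 2.39, 2.02 and 2.23 with SAHA, and 0.861, 0.951 and 0.996 with DMSO. INSIG2 had the higher FPKM of the pair in every treated library and the lower in every DMSO library. The pair was nearly level in DMSO replicate 3, at 11.35 FPKM for INSIG2 and 11.4 FPKM for INSIG1.

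**Figure D3:**
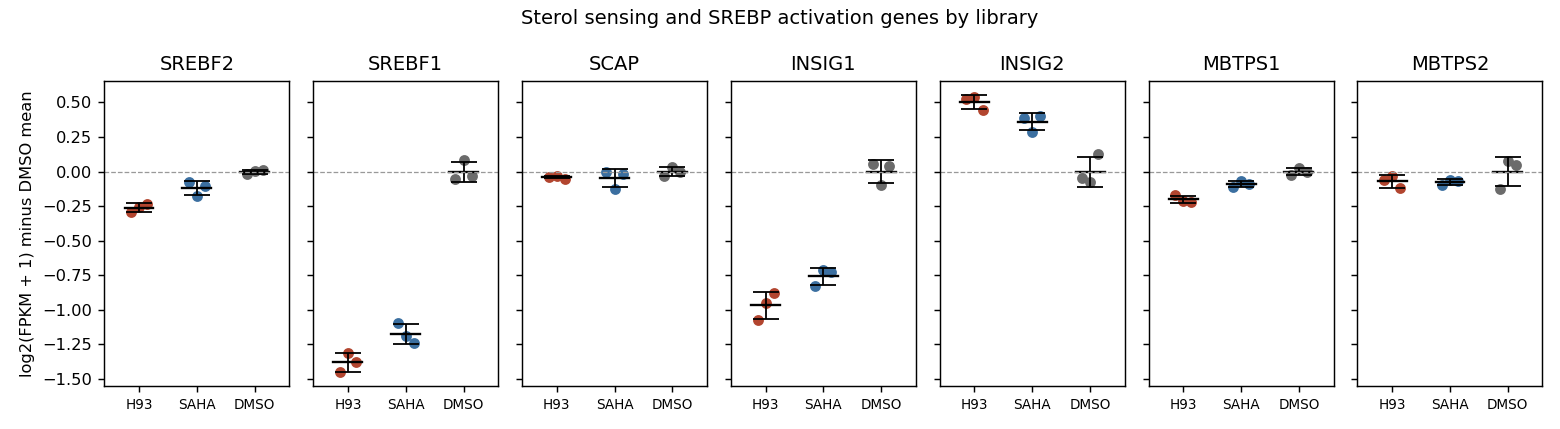
Differences in log2(FPKM + 1) from the DMSO mean (vertical axis) for the 7 sterol sensing and activation genes in each library; points are libraries, bars the mean and SD of 3, with H93, SAHA and DMSO from left to right in each panel. INSIG1 and SREBF1 lie below the DMSO libraries and INSIG2 above them under both compounds.

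The wider pathway was read from a list of 23 synthesis enzymes, which includes the 6 enzyme genes above. IDI2 was below the filter, and of the other 22 genes 12 fell and 6 rose with H93, and 11 fell and 3 rose with SAHA. Of all tested genes 35.0% were lower and 34.9% higher with H93, and 31.4% and 27.4% with SAHA. The median log2 difference of the 22 genes was -0.08 with H93 and -0.09 with SAHA, beside 0.0016 and -0.01 over all genes tested. Of the 16 tested enzymes outside the 8 genes, 8 fell and 6 rose with H93, and 8 fell and 3 rose with SAHA. These counts stand beside the same shares of all tested genes. The median log2 difference of the 16 was -0.04 with H93 and -0.09 with SAHA. Summed over the listed enzymes, FPKM lay between 659.3 and 665 with H93, between 662.8 and 671.4 with SAHA, and between 719.1 and 730.5 with DMSO. Against SAHA, 3 of the 22 genes were lower and 4 higher with H93, where 13.9% and 17.6% of all tested genes were. Between 5 and 7 of the 22 passed this comparison over the alternative settings.

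From acetyl-CoA to farnesyl diphosphate, 6 of 8 tested genes fell and 1 rose with H93 (35.0% and 34.9% of all tested genes), and 5 fell and 1 rose with SAHA (31.4% and 27.4% of all tested genes). MVD, mevalonate diphosphate decarboxylase, stood at 19.8 ± 0.536 FPKM with H93, 21.5 ± 0.480 FPKM with SAHA and 31.6 ± 0.851 FPKM with DMSO, and its log2 differences of -0.65 and -0.54 exceeded those of all other tested enzymes. ACAT2, the cytosolic thiolase of the first step, fell to 32.4 ± 0.273 FPKM with H93 and 34.0 ± 1.12 FPKM with SAHA, against 47.4 ± 2.48 FPKM with DMSO. MVK, mevalonate kinase, fell with both compounds (log2 difference -0.20 with H93 and -0.41 with SAHA), whereas the next kinase, PMVK, rose with both (0.12 and 0.29). The direct differences between H93 and SAHA were 0.21 for MVK and -0.17 for PMVK (adjusted p = 0.00896 and 0.00176, limma). FDPS fell with H93 (-0.08) and stood at 0.0032 with SAHA (adjusted p = 0.912, limma). GENCODE lists processed pseudogenes of FDPS, and their part in its level was not tested.

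Of 11 tested genes after lanosterol 4 fell and 5 rose with H93, close to the 35.0% and 34.9% of all tested genes. With SAHA 5 fell and 2 rose, beside 31.4% and 27.4% of all tested genes. EBP, the sterol isomerase, fell to 41.7 ± 1.23 FPKM with H93 and 44.7 ± 2.67 FPKM with SAHA, against 53.1 ± 0.634 FPKM with DMSO, and CYP51A1, the lanosterol demethylase, fell by less (log2 difference -0.14 and -0.09). Its SAHA call was lost without SAHA replicate 2 or 3 or DMSO replicate 1 and with quantile normalization (adjusted p up to 0.113 in limma). SC5D, the desaturase that makes the substrate of DHCR7, rose to 10.7 ± 0.470 FPKM with H93 and 10.3 ± 0.204 FPKM with SAHA, against 8.59 ± 0.364 FPKM with DMSO. ERG28, a scaffold of the demethylation complex, rose with H93 (0.21). With SAHA its log2 difference was 0.08, at adjusted p = 0.0626 in limma, and it passed in 4 of 17 alternative settings, among them without SAHA replicate 2 or DMSO replicate 3 (adjusted p as low as 0.0177). TM7SF2, a sterol reductase, rose with H93 (0.16) and fell with SAHA (-0.14), and the direct difference between the compounds was 0.30 (adjusted p = 0.000318, limma). LBR, which has the same reductase activity, fell with SAHA (-0.09) and stood at -0.0079 with H93 (adjusted p = 0.797, limma), and the difference between the compounds, 0.08 at adjusted p = 0.028 in limma, was lost in 6 of 17 alternative settings (adjusted p up to 0.0865), among them without H93 replicate 1 or 3 or SAHA replicate 1 or 2.

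The calls of 2 further genes in this stretch were lost without single libraries. NSDHL, called as lower with H93 (-0.14, adjusted p = 0.046 in limma), lost its call in 7 of 17 alternative settings (adjusted p up to 0.165), among them without H93 replicate 1 or 2, SAHA replicate 2 or DMSO replicate 1 or 3. HSD17B7, called as higher with both compounds (0.22 and 0.22, adjusted p = 0.0412 and 0.0492 in limma), lost it in 6 and 9 of 17 (adjusted p up to 0.129 and 0.214). The H93 call went without H93 replicate 1 or 2 or DMSO replicate 2 or 3, and the SAHA call without any 1 H93 library, SAHA replicate 2 or DMSO replicate 2 or 3. MSMO1 stood at 0.10 with H93 (adjusted p = 0.0567 in limma) and 0.0089 with SAHA (0.877), and passed with H93 in 3 of 17 settings, which included leaving out SAHA replicate 3 or DMSO replicate 3 (adjusted p as low as 0.00521 in limma).

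**Figure D4:**
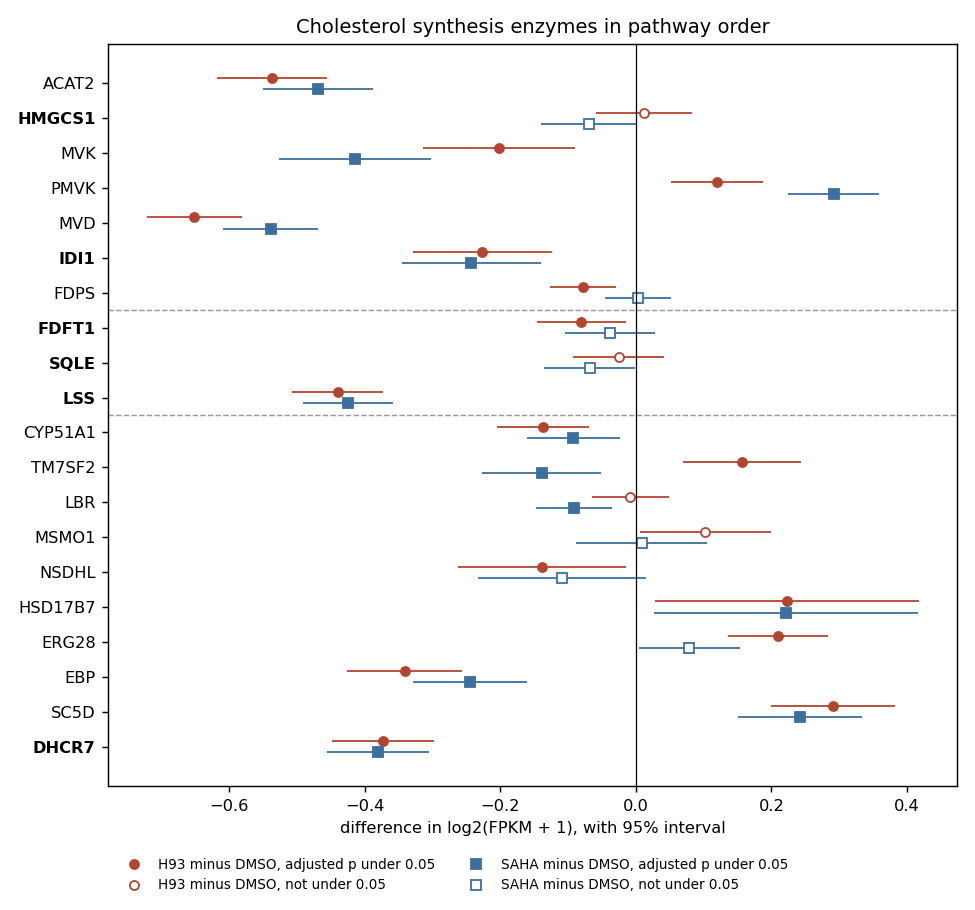
Differences in log2(FPKM + 1) from DMSO with unadjusted 95% intervals (horizontal axis) for 20 of the 22 tested synthesis enzymes in pathway order from top to bottom, H93 as circles and SAHA as squares, filled where the adjusted p was under 0.05; dashed lines part the steps before squalene, to lanosterol and after it, and the 6 enzymes described first are in bold. MVD, ACAT2, LSS, DHCR7 and EBP lie lowest with H93, and genes after lanosterol lie on both sides of 0.

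Genes of sterol uptake and trafficking, which share the SREBP input with the synthesis enzymes in part, also went both ways. Of 11 tested genes in this mixed list, 3 were lower and 6 higher in each comparison with DMSO. Of all tested genes 35.0% were lower and 34.9% higher with H93, and 31.4% and 27.4% with SAHA. SCARB1, the HDL receptor gene, fell to 20.9 ± 0.227 FPKM with H93 and 23.1 ± 0.452 FPKM with SAHA, against 44.3 ± 1.13 FPKM with DMSO. NPC2 and LIPA, whose products respectively carry and free cholesterol in lysosomes, rose. Their log2 differences were 1.10 and 0.54 for H93 and 0.85 and 0.23 for SAHA.

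By mean absolute distance of the log2 profiles over the 9 libraries, each less its DMSO mean, the genes nearest to SREBF2 were ATF4 (0.0183), NCSTN (0.0194) and DNMT1 (0.0195). ATF4 stood at 39.2 ± 0.711 FPKM with H93, 42.3 ± 1.60 FPKM with SAHA and 47.1 ± 0.620 FPKM with DMSO. NCSTN stood at 50.1 ± 1.82 FPKM with H93, 53.6 ± 2.45 FPKM with SAHA and 59.2 ± 0.541 FPKM with DMSO. DNMT1 stood at 81.0 ± 0.921 FPKM with H93, 88.7 ± 1.36 FPKM with SAHA and 96.0 ± 1.68 FPKM with DMSO. Those nearest to INSIG1 were C8orf82 (0.0366), NNT (0.0576) and PDGFB (0.0594). These distances describe likeness over 9 libraries in 3 groups and carry no test.

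Exons of antisense or other opposite-strand RNA genes overlap those of HMGCS1 (703 of its 4702 exonic bases), IDI1 (14.8% of its exonic bases), LSS (6.19% and 1.69%), FDFT1 (4.17%) and SREBF2 (3.71%) in GENCODE release 29. The library kit keeps strand, but whether strand was used in quantification is not given in the sources used here, so reads of these stretches cannot be assigned with certainty. INSIG1, SQLE and DHCR7 share no exonic base with another annotated gene.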

How the data were processed

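Polyadenylated RNA of DU145 cells was measured in 9 libraries, 3 each for H93, SAHA and DMSO, with groups and replicate numbers from the sample titles. The authors deposited FPKM per gene and library. Trimmomatic 0.36, HISAT2 and Cufflinks and the build GRCh38.p13 are listed, without roles, per the submitters' processing notes, and the annotation is not given in the sources used here. Reads were not recovered, and the absolute depth was unknown. Nonzero values were never shared by a pair of libraries.

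Genes that reached an FPKM of 1 in 3 or more of the 9 libraries were analysed as log2(FPKM + 1). This scale understates the change of low genes. The fit used limma 3.58.1 in R 4.3.3 (all libraries, group means, mean-variance trend, empirical Bayes moderation, two-sided, Benjamini-Hochberg adjustment). It had 6 residual degrees of freedom, to which the moderation added 6.05 prior degrees of freedom. The procedure was tested on simulated data. No exact permutation test was used, its smallest possible p being 0.1 for groups of 3. Alternatives were pseudocounts of 0.1 and 5, no filter, a minimum mean FPKM of 5, quantile and median-ratio scaling, a replicate block, a fit to the 6 libraries of a comparison alone, and leaving out each library. No batch is given in the labels.

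The 8 genes and all lists were chosen with earlier results of these data known. Named were the 8 genes, all tested genes of the synthesis and sterol sensing lists, up to 4 genes with the largest absolute difference of each other list, and the 3 nearest profiles to SREBF2 and INSIG1. Some genes that this rule takes are counted in their lists but not reported here by name. Positions came from GENCODE 29, matched by symbol and Entrez identifier, and promoters from RefSeq. Python 3.11.15 (numpy 2.4.6, pandas 2.3.3, matplotlib 3.10.9) was used for summaries and plots.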

Additional observations from a re-analysis of the deposited data

How the results depend on the processing

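Over 17 alternative settings the calls of SREBF2, INSIG1, IDI1, LSS and DHCR7 against DMSO kept their direction and their side of the threshold with both compounds. SAHA against DMSO gave 5 called members in every setting, and H93 against DMSO gave 5 or 6, the difference being FDFT1. For H93 against SAHA the number of called members was 2, but 1 with no filter on low values, and between 1 and 2 when 1 library was left out, since INSIG1 lost its call; the cause was not tested. Differences that did not pass changed sign in some settings. For H93 against DMSO, leaving out 1 library put HMGCS1 between -0.0147 and 0.0277 and SQLE between -0.0422 and 0.0013. For H93 against SAHA it put IDI1 between -0.0332 and 0.0478, LSS between -0.029 and 0.0026 and DHCR7 between -0.0273 and 0.0405. Under quantile normalization IDI1 stood at -0.0061 and DHCR7 at -0.0009, and under median-ratio rescaling DHCR7 stood at -0.0067. With the replicate number as a block, 7986 genes passed for H93 against DMSO (8050 without it), 6649 for SAHA against DMSO (6780) and 3426 for H93 against SAHA (3629), and 6, 5 and 2 of the 8 genes passed, as without it. Same-numbered libraries did not deviate together (correlations between -0.0975 and 0.0355), so the numbers were not used to pair them. Of the pathway list genes called, 46 of 52 kept the call in every setting for H93 against DMSO, 38 of 45 for SAHA against DMSO and 14 of 19 for H93 against SAHA. Absolute depth being unknown, no counting interval can be given.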

Other observations

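Of 7 listed genes of sterol esterification and oxysterol synthesis 3 passed the filter on low values and all 3 rose with both compounds, where 34.9% of all tested genes rose with H93 and 27.4% with SAHA. The other 4 were not tested. NCEH1, a cholesteryl ester hydrolase, stood at 103.7 ± 1.33 FPKM with H93, 104.0 ± 0.844 FPKM with SAHA and 83.2 ± 0.873 FPKM with DMSO (SD, n = 3 each). SOAT1, the enzyme that esterifies cholesterol, stood at 12.99 ± 0.343 FPKM with H93, 12.8 ± 0.347 FPKM with SAHA and 10.7 ± 0.189 FPKM with DMSO. CYP27A1, the sterol 27-hydroxylase, stood at 6.52 ± 0.334 FPKM with H93, 6.43 ± 0.334 FPKM with SAHA and 5.39 ± 0.269 FPKM with DMSO.

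Of 11 tested isoprenoid branch genes 5 fell and 4 rose with H93, and 5 fell and 3 rose with SAHA, near the shares of all tested genes, which were 35.0% lower and 34.9% higher with H93 and 31.4% and 27.4% with SAHA. The calls of FNTA and ZMPSTE24 with H93 and of NUS1 with SAHA were lost when single libraries were left out (adjusted p up to 0.155, 0.115 and 0.115), and those of FNTA and NUS1 also with no filter on low values and with the replicate number as a block. DHDDS, a subunit of the dolichol-forming transferase, rose to 13.6 ± 0.480 FPKM with H93 and 11.9 ± 0.804 FPKM with SAHA, against 9.52 ± 0.708 FPKM with DMSO. RCE1, the protease that trims prenylated proteins, fell to 19.2 ± 1.18 FPKM with H93 and 17.8 ± 1.34 FPKM with SAHA, against 23.6 ± 0.479 FPKM with DMSO, and COQ2 and PDSS2, genes of coenzyme Q synthesis, also fell with both. The PDSS2 call with SAHA (log2 difference -0.21, adjusted p = 0.021 in limma) was lost without SAHA replicate 1 or 3 or DMSO replicate 1 and with no filter on low values (adjusted p up to 0.0889).

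Among 10 genes that turn over sterol synthesis enzymes or INSIG proteins, 4 fell and 4 rose with H93, and 3 fell and 3 rose with SAHA, again close to the shares of all tested genes. Of these the calls of ERLIN2 with H93 and of RNF139, RNF145 and MARCHF6 with SAHA were lost when single libraries were left out (adjusted p up to 0.106, 0.165, 0.12 and 0.0791). The RNF139 call was also lost with no filter, with the replicate number as a block and in a fit to the 6 libraries compared, and the RNF145 call with quantile and median-ratio scaling. TMUB1 fell with both (log2 differences -0.35 and -0.26). SYVN1, a ubiquitin ligase of the endoplasmic reticulum, rose with H93 (0.33) and had a log2 difference of 0.04 with SAHA, and ERLIN1 fell with H93 (-0.26) against -0.05 with SAHA. The direct differences between H93 and SAHA were 0.28 for SYVN1 and -0.21 for ERLIN1 (adjusted p = 0.000302 and 0.000264, limma).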
